A study of Caenorhabditis elegans with 4 samples.

Results

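The *miR-35* family of *C. elegans* was examined through *miR-36*, *miR-37*, *miR-38* and *miR-39* (cel-mir-36, cel-mir-37, cel-mir-38 and cel-mir-39 in the files), which were chosen by name. These 4 genes took 7 of the 219 rows of the miRNA count table, which holds 148 names. *miR-36*, *miR-37* and *miR-39* each had a pair of rows and *miR-38* had 1. The libraries were made from small RNA of whole L1 larvae of 2 strains, *pry-1(mu38)* and N2, with 2 libraries each. *pry-1(mu38)* animals carry the mu38 mutation in *pry-1*, which encodes an Axin-like scaffold protein and negative regulator of WNT signaling. N2 is the standard wild-type strain. All animals were raised on standard growth medium and synchronized by repeated bleaching, which spares only eggs. The study places the profiling late in L1 and kept its worms on plates with bacteria as food. For its qRT-PCR samples it let *pry-1* mutants, which grow more slowly, develop for longer than N2 to match their stage, and whether this was also done for the libraries is not given in the sources used here, nor are their hours of growth or number of animals. The libraries held 3284425 and 4651818 counts in *pry-1(mu38)* and 6651178 and 6491918 counts in N2. The sources do not say that the libraries came from separate cultures, so the p-values measure only the spread between these samples, which may be technical. Small RNA counts do not measure the *pry-1* transcript, so the strain labels could not be checked on the mutated gene.

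miRNAs are short RNAs that guide Argonaute proteins to messenger RNAs, mainly by pairing of the seed, the bases near the start of the mature strand. A hairpin precursor is cut into a duplex of an arm from each side of the stem, and usually a single arm is kept as the guide while the other, the passenger or star strand, is degraded. The *miR-35* family, *miR-35* to *miR-42*, shares a seed and is known as an embryonic family of *C. elegans*. It is loaded maternally and made in the early embryo, it is required for embryonic development, its members act redundantly, and its level drops sharply around hatching. No embryo or later larval library was analysed here, so these data measure what was present in L1 animals and not whether it was made before or after hatching.

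The members lie next to each other on chromosome II. By the Ensembl annotation of WBcel235, the hairpin of *miR-36* is at chrII:11537713-11537809, that of *miR-37* at chrII:11537833-11537930, that of *miR-38* at chrII:11537933-11538027 and that of *miR-39* at chrII:11538089-11538175, all on the plus strand. They belong to a cluster of 7 hairpins, *miR-35* to *miR-41*, that spans 797 bp, and the gaps between neighbouring hairpins were 2 to 61 bp. *miR-42* is 351406 bp away on the same chromosome. The whole cluster lies inside the protein-coding gene Y62F5A.9, which runs on the minus strand, and no hairpin overlaps a coding exon of it. The hairpins of *miR-36* and *miR-37* also overlap the non-coding RNA gene Y62F5A.14, and that of *miR-39* overlaps Y62F5A.15. Each of the 4 hairpins has 2 annotated mature arms. The count table does not name arms, so the rows of a name are called here the higher and the lower row by their counts.

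**Figure D1:**
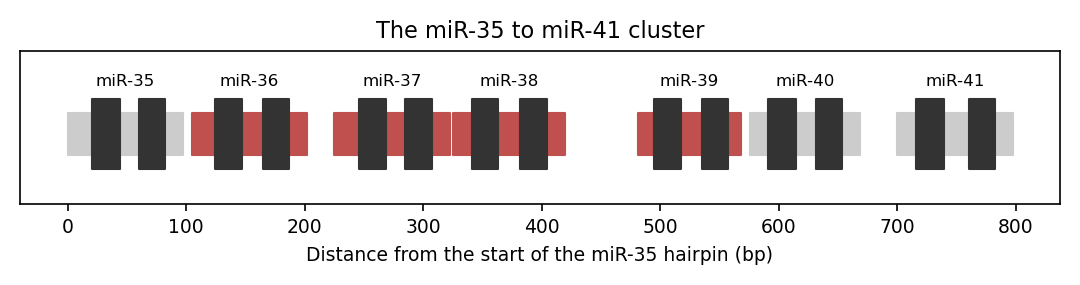
Map of the *miR-35* to *miR-41* cluster, with the distance from the start of the *miR-35* hairpin in bp on the x axis. Wide boxes are hairpins (red for *miR-36* to *miR-39*, grey for the other members) and dark boxes are the annotated mature arms. All 7 hairpins fall within 797 bp, and the widest gap, 61 bp, is between *miR-38* and *miR-39*.

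The seed that defines the family can be shown on a relative, because the study's list of sequences held 0 of the 4 members. It held *miR-42* and *miR-41*, which are printed to show the family seed and an RNA of the same cluster without it. The capitals mark bases 2 to 8.
miR-42: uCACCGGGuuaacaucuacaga
miR-41: gGUGGUUUuucucugcagugaua
*miR-42* carried the family seed, and it was the only 1 of the 157 listed sequences to do so. The RNA listed for *miR-41* had other letters at these positions. It is 1 RNA of a hairpin with 2 annotated arms, so it does not show that *miR-41* lacks the family seed.

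Counts in the table did not always stand on the row of their own name. In stretches, a library's column was displaced by up to 3 rows. Rows were therefore placed by the read totals that the study lists for 126 of the names, of which 86 could be matched, and 153 rows were placed in all. The members are not in that list. Their rows lie between *miR-359* and *miR-392*, and both of these met their totals with the same displacement, 2 rows in N2 replicate 2 and 0 rows in the other 3 libraries. The N2 replicate 2 values of all 7 rows rest on this placement.

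The 4 members together were less abundant in *pry-1(mu38)* libraries than in N2 libraries, and *miR-39* and *miR-37* made up most of them in both strains. They took 0.479% and 0.483% of all counts in *pry-1(mu38)*, against 0.852% and 0.726% in N2. The *pry-1(mu38)* libraries lay closer to each other than the N2 libraries did, and both lay below both N2 libraries. The mean share was 0.481% ± 0.00247 in *pry-1(mu38)* and 0.789% ± 0.0894 in N2 (SD, n = 2 each), a difference of -0.308 percentage points or a ratio of 0.610. The exact two-sided permutation test over libraries gave p = 0.333, which is the smallest value that 2 libraries against 2 allow. The exact 95% Clopper-Pearson intervals were 0.472 to 0.487% and 0.477 to 0.489% in *pry-1(mu38)* and 0.845 to 0.859% and 0.719 to 0.732% in N2. These intervals cover only the counting error within a library. The reads carry no molecular identifiers, so copies of the same molecule could not be removed and the intervals may be too narrow. In RNA from whole animals, fewer cells that contain a miRNA and less of it per cell cannot be told apart. Library depth moved with the strain, as both *pry-1(mu38)* totals were below both N2 totals, and its part in the result was not tested.

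**Figure D2:**
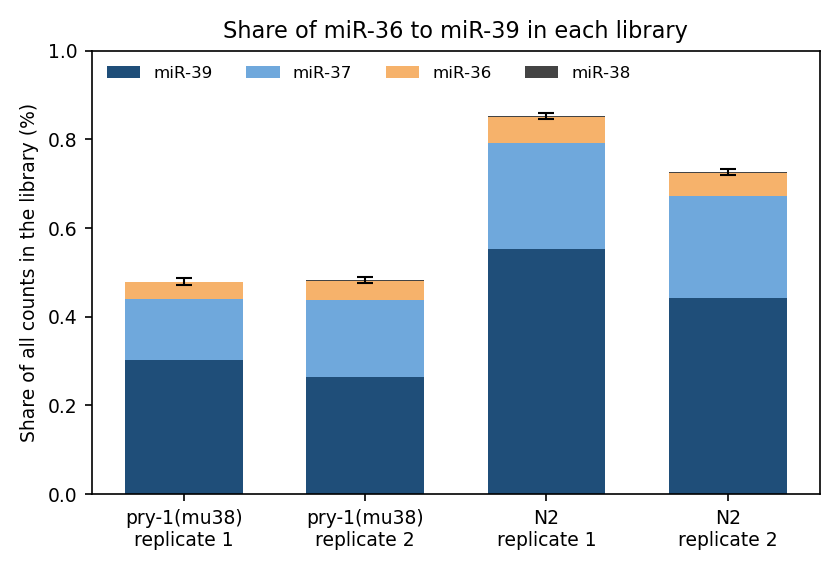
Share of all counts (%, y axis) taken by *miR-39*, *miR-37*, *miR-36* and *miR-38* in each library, with both rows of a name summed, *pry-1(mu38)* on the left and N2 on the right. The bars are the exact 95% counting intervals of the summed share. The *pry-1(mu38)* libraries stand at 0.479% and 0.483%, below N2 at 0.852% and 0.726%.

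The order of the members was the same in all 4 libraries, *miR-39* first, then *miR-37*, *miR-36* and *miR-38*. The step at the top was the smallest. *miR-39* exceeded *miR-37* by 2.31-fold and 1.55-fold in *pry-1(mu38)* and by 2.37-fold and 1.95-fold in N2. *miR-37* exceeded *miR-36* by 3.53-fold and 4.003-fold in *pry-1(mu38)* and by 3.94-fold and 4.48-fold in N2. The last step was the widest in these counts, as *miR-36* exceeded the single row of *miR-38* by 41.9-fold and 25.6-fold in *pry-1(mu38)* and by 57.8-fold and 29.6-fold in N2. The other annotated arm of *miR-38* has no row of its own in the table used here, and the counts of its row, 29 to 111, lie within the range of the lower rows of the other members, 9 to 412. The last step therefore may not compare main arms, and the place of *miR-38* holds for the counted rows only. Within each strain, the counts of neighbours in the order did not overlap between the libraries. The gap was not always wider than the spread between libraries. In *pry-1(mu38)* the higher row of *miR-39* had 9941 and 12255 counts, against 4295 and 7906 for that of *miR-37*. These steps compare read counts of different small RNAs, which adapter ligation can favour unequally, and no correction for this could be made.

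The makeup of the family overlapped between the strains for all members but *miR-36*. *miR-39* was 63.2% and 54.7% of the family counts in *pry-1(mu38)*, against 64.8% and 61.0% in N2. *miR-37* was 28.8% and 36.1% in *pry-1(mu38)*, against 28.1% and 31.8% in N2. For both, the strains overlapped (exact permutation p = 0.667 each). *miR-36* was 7.81% and 8.88% of the family in *pry-1(mu38)*, against 7.01% and 7.05% in N2, and here the strains did not overlap (exact permutation p = 0.333, the smallest possible). *miR-38* was 0.184% and 0.343% in *pry-1(mu38)*, against 0.120% and 0.236% in N2, with overlap (exact permutation p = 0.667). *miR-38*, whose hairpin lies 2 bp from that of *miR-37*, had the fewest counts of the 4 names in all libraries, with 1 row where the others have 2.

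Within the whole table the higher row of *miR-39* ranked 26 and 26 of 219 in *pry-1(mu38)* and 21 and 24 in N2. The higher row of *miR-37* ranked 34 and 33 in *pry-1(mu38)* and 28 and 28 in N2. The higher row of *miR-36* ranked 52 and 53 in *pry-1(mu38)* and 45 and 51 in N2. All 3 rows stood lower in the order in each *pry-1(mu38)* library than in either N2 library. For scale, the most abundant row was *miR-228*, with 197607 and 294615 CPM in *pry-1(mu38)* and 205309 and 190946 CPM in N2. CPM here are library-scaled counts (cpm of edgeR), after correction by the trimmed mean of M values (TMM).

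In each strain the paired rows of a name were very unequal. For *miR-39* the lower row had 9 and 31 counts in *pry-1(mu38)* and 40 and 62 counts in N2, beside 9941 and 12255 counts of the higher row in *pry-1(mu38)* and 36692 and 28657 in N2. The higher row thus exceeded the lower by 1105-fold and 395-fold in *pry-1(mu38)* and by 917-fold and 462-fold in N2. The libraries of a strain differed by more than the strains did, and the mean log2 ratio differed by 0.021 (exact permutation p = 1). With 9 counts in the lower row of *pry-1(mu38)* replicate 1, the share of the lower row had a 95% Clopper-Pearson interval of 0.0414 to 0.172% in that library, against 0.0778 to 0.148% and 0.166 to 0.277% in N2.

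The rows of *miR-36* were less unequal, and their ratio varied little. It was 86.8 and 98.8 in *pry-1(mu38)* and 87.3 and 80.0 in N2, with overlap (log2 difference 0.15, exact permutation p = 0.667). The lower row made up 1.14% and 1.003% of the *miR-36* counts in *pry-1(mu38)* and 1.13% and 1.23% in N2.

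*miR-37* kept the most of its lower row. The ratio was 17.9 and 40.3 in *pry-1(mu38)* and 37.6 and 58.6 in N2, with overlap (log2 difference -0.80, exact permutation p = 0.667). The lower row made up 5.29% and 2.42% of the *miR-37* counts in *pry-1(mu38)*, against 2.59% and 1.68% in N2. The value of *pry-1(mu38)* replicate 1 stood apart, with a 95% interval of 4.66 to 5.98% that lay above those of the other 3 libraries. Without this library the log2 difference was -0.22. The order of the names by lower-row share, *miR-37*, then *miR-36*, then *miR-39*, was the same in all 4 libraries.

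**Figure D3:**
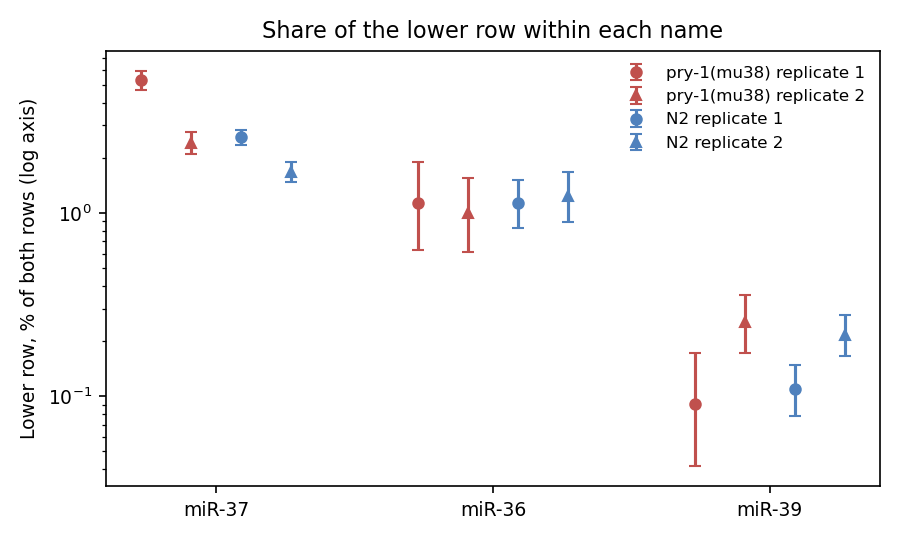
Counts of the lower row as a percentage of both rows of a name (y axis, log scale) for *miR-37*, *miR-36* and *miR-39*, in *pry-1(mu38)* (red) and N2 (blue), with exact 95% Clopper-Pearson intervals. The values run between 1.68% and 5.29% for *miR-37*, between 1.003% and 1.23% for *miR-36* and between 0.0905% and 0.252% for *miR-39*, so the names do not overlap while the strains do.

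The higher rows of *miR-39*, *miR-37* and *miR-36* and the lower row of *miR-36* were below N2 in both *pry-1(mu38)* libraries, and none of the 7 rows passed the test across the table. Thus 4 of the 7 member rows did not overlap between strains in this direction, against 18.3% of the 153 placed rows (28 rows). The opposite direction held for 22.9% of all placed rows and for 0 of the member rows. Among rows with a mean of at least 100 CPM, 3 of 3 member rows were lower without overlap, against 18.2% of all (12 of 66). The member rows cannot be counted as independent, since they come from neighbouring hairpins and the 2 rows of *miR-36* from the same hairpin. No member row was called at a Benjamini-Hochberg adjusted p under 0.05 by the quasi-likelihood test of edgeR (0 of 7), and none of the whole table was (0 of 153, or 0%). At an unadjusted p under 0.05 the same test held 1 of the 7 rows, which was lower in *pry-1(mu38)*, against 7.19% of all rows in either direction (11 of 153) and 3.27% in this direction (5 of 153). DESeq2 held 2 of the 7 rows at an unadjusted p under 0.05, against 8.5% of all (13 of 153), and after adjustment it called 0 of the 7 and 0.654% of all. That is 1 row, *miR-246*, which is named here after its value was seen. The median log2 fold change was -0.63 over the 7 rows and 0.10 over all 153.

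*miR-39* had the lowest ratio of the members. Its higher row had 2919 and 2701 CPM in *pry-1(mu38)*, against 5926 and 4157 CPM in N2. The N2 libraries differed from each other more than the *pry-1(mu38)* libraries did, and the strains did not overlap. The log2 fold change was -0.84 (SE 0.264, a ratio of 0.557), with an edgeR unadjusted p of 0.0273 and an adjusted p of 0.437. Of the 66 placed rows with a mean of at least 100 CPM, 2 had a lower log2 fold change. The lower row had 2.64 and 6.83 CPM in *pry-1(mu38)*, against 6.46 and 8.99 CPM in N2, with overlap and a log2 fold change of -0.68 (SE 0.573, edgeR adjusted p = 0.684).

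*miR-37* stood closer between the strains. Its higher row had 1261 and 1742 CPM in *pry-1(mu38)*, against 2501 and 2133 CPM in N2. The strains did not overlap, and the log2 fold change was -0.63 (SE 0.267, edgeR adjusted p = 0.437). The lower row had 70.5 and 43.2 CPM in *pry-1(mu38)*, against 66.5 and 36.4 CPM in N2. In this row the replicates of a strain differed by more than the strains, and its log2 fold change of 0.14 (SE 0.482, edgeR adjusted p = 0.942) had the opposite sign to that of the higher row. The sign turned to -0.36 without *pry-1(mu38)* replicate 1 and to -0.23 without N2 replicate 2.

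*miR-36* had a higher row of 357 and 435 CPM in *pry-1(mu38)*, against 635 and 476 CPM in N2. The nearest libraries of the strains were 435 and 476 CPM, so the gap between the strains was narrower than that between the N2 libraries. The log2 fold change was -0.49 (SE 0.283, edgeR adjusted p = 0.525). The lower row had 4.11 and 4.41 CPM in *pry-1(mu38)*, against 7.27 and 5.95 CPM in N2, or 14 and 20 counts against 45 and 41. Its log2 fold change was -0.63 (SE 0.370, edgeR adjusted p = 0.528).

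*miR-38* did not separate the strains. Its row had 29 and 77 counts in *pry-1(mu38)* and 68 and 111 counts in N2, or 8.51 and 16.97 CPM against 11.0 and 16.1 CPM. Replicate 2 was the higher library in both strains. The log2 fold change was -0.082 (SE 0.509, edgeR adjusted p = 0.957), and its sign turned to 0.23 without *pry-1(mu38)* replicate 1 and to 0.22 without N2 replicate 2.

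**Figure D4:**
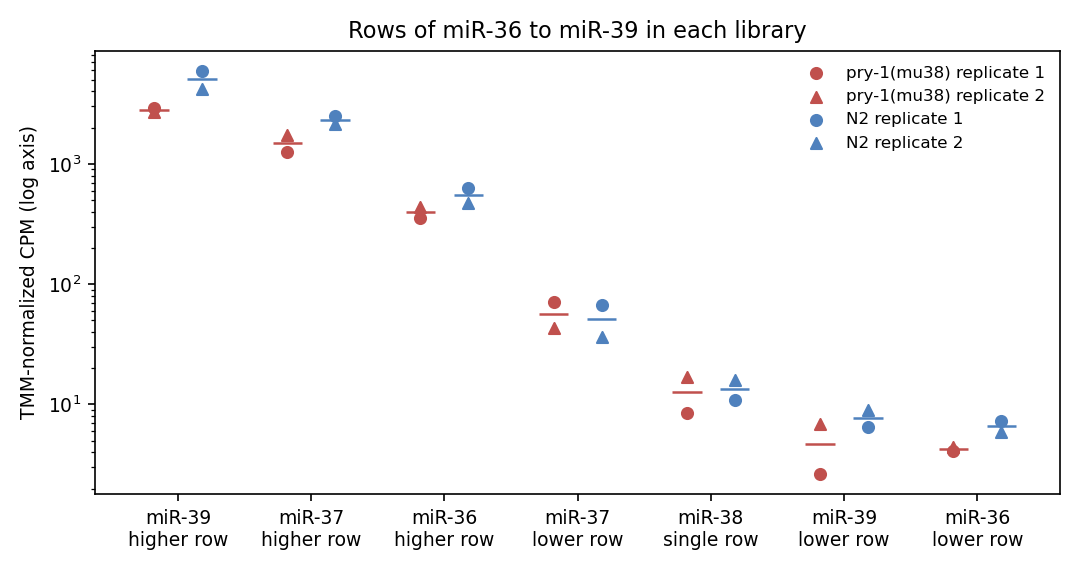
TMM-normalized CPM (y axis, log scale) of the 7 rows in each library, *pry-1(mu38)* in red left of N2 in blue, with circles for replicate 1, triangles for replicate 2 and lines for the mean of 2 libraries. The higher rows of *miR-39*, *miR-37* and *miR-36* and the lower row of *miR-36* lie lower in both *pry-1(mu38)* libraries, and the other 3 rows overlap.

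The other members of the family could be compared only in part. Their rows did not pass the placement used for the table and were placed after their values had been seen, so they are given beside the members as a description. *miR-40* and *miR-41* took the displacement of *miR-392* above them alone, and *miR-42* the single combination that met its listed total. The next checked row below, of *miR-43*, had another displacement, so the values of *miR-40* and *miR-41* are less certain. *miR-35*, the first hairpin of the cluster, had 5494 and 5073 CPM in *pry-1(mu38)* and 12564 and 8672 CPM in N2, with the value of *pry-1(mu38)* replicate 2 taken from the only filled cell of that name. Its log2 fold change was -1.01 (SE 0.276, edgeR adjusted p = 0.437 over 156 rows). *miR-40* had 4494 and 3613 CPM in *pry-1(mu38)* and 8014 and 6236 CPM in N2, with a log2 fold change of -0.81 (SE 0.265, edgeR adjusted p = 0.437). Both thus exceeded *miR-39* in each library and were lower in both *pry-1(mu38)* libraries.

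*miR-41*, the last of the cluster, had 0 and 6 counts in *pry-1(mu38)* and 14 and 16 counts in N2. Like *miR-38* it has a single row, so these counts may not be those of its main arm. The smallest value above 0 in each library was 5 counts, so a 0 may stand for a lower count, and no fold change was computed. *miR-42*, outside the cluster, went the other way in its values, with 66.7 and 119 CPM in *pry-1(mu38)* and 52.9 and 51.5 CPM in N2 (log2 fold change 0.83, SE 0.428, edgeR adjusted p = 0.479). With *miR-35*, *miR-40* and *miR-42* added, the family took 1.51% and 1.39% of all counts in *pry-1(mu38)* and 2.72% and 2.30% in N2, a ratio of 0.578 beside the 0.610 of the 4 members.

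**Figure D5:**
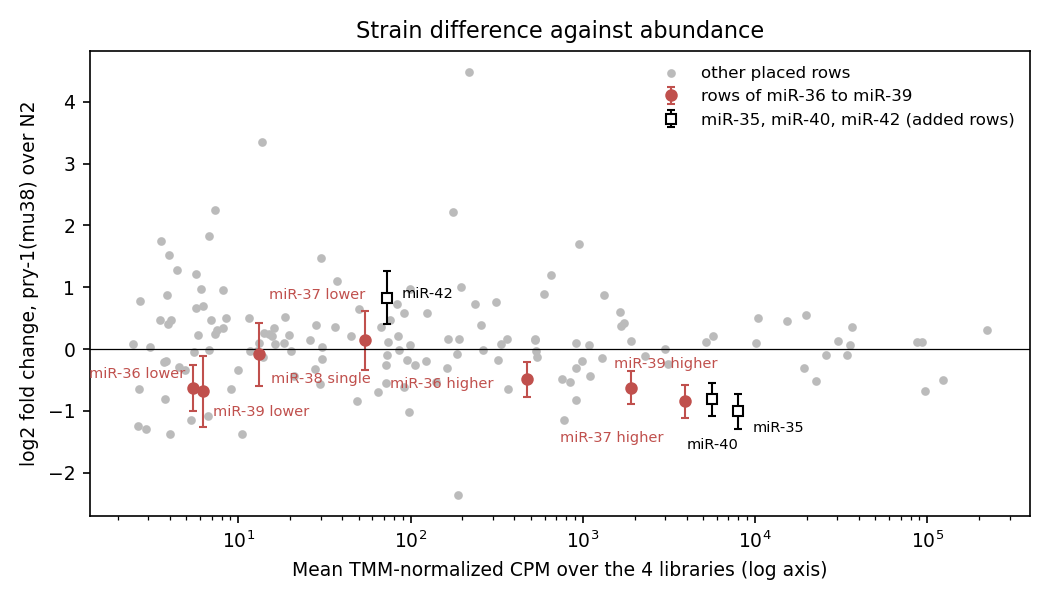
Strain difference as log2 of the ratio of *pry-1(mu38)* to N2 (y axis) against the mean TMM-normalized CPM of the 4 libraries (x axis, log scale). Grey points are the other placed rows, red points with SE the rows of *miR-36* to *miR-39*, and open squares with SE the rows of *miR-35*, *miR-40* and *miR-42*, which were placed after their values were seen. The higher rows of the members lie between -0.49 and -0.84, with *miR-35* and *miR-40* at -1.01 and -0.81 and *miR-42* at 0.83.

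Larval timing miRNAs, which rise in set larval stages, were read beside the family as markers of stage. This list, *miR-241*, *miR-237*, *miR-84*, *miR-48*, *lin-4* and *let-7*, holds genes that the study reports on from these libraries, so it is no independent evidence of a direction. All 8 placed rows of the 6 genes had a positive log2 fold change, and edgeR called 0 of them. Their median was 1.96, beside 0.10 over all 153 rows. The strains overlapped in *let-7*, *miR-241*, both rows of *miR-48* and the higher row of *miR-84*, and not in the other rows. In all 8 rows *pry-1(mu38)* replicate 2 was above replicate 1. *lin-4*, which acts in the passage from the first to the second larval stage, had 23.2 and 814 CPM in *pry-1(mu38)* and 17.1 and 20.3 CPM in N2. *pry-1(mu38)* replicate 2 was thus 35.1-fold above replicate 1 in *lin-4*, the widest such step of the 8 rows. *miR-237* had 885 and 2029 CPM in these libraries. The summed share of the 4 *miR-35* family members was 0.479% and 0.483% there, a difference of 0.00350 percentage points, and 0.852% and 0.726% in N2. Between the *pry-1(mu38)* libraries single members differed more, in opposite directions. The higher row of *miR-39* took 0.303% of the counts in replicate 1 and 0.263% in replicate 2 of *pry-1(mu38)*, and that of *miR-37* took 0.131% and 0.170%. With *miR-35*, *miR-40* and *miR-42* added, the gap between these libraries was 0.127 percentage points, with replicate 2 the lower. For the 4 members, the difference in share between the strains was -0.310 percentage points without *pry-1(mu38)* replicate 2 and -0.306 without replicate 1. Whether the age or stage of the animals had a part in the family's level was not tested.

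The *miR-51* family is another miRNA family needed in the embryo, and 2 of its 6 genes had a placed row. *miR-51* had 22204 and 12465 CPM in *pry-1(mu38)* and 26858 and 15858 CPM in N2, with overlap (log2 fold change -0.30, SE 0.418, edgeR adjusted p = 0.851). *miR-54* had 353 and 415 CPM in *pry-1(mu38)* and 300 and 383 CPM in N2, also with overlap (log2 fold change 0.17, SE 0.274, edgeR adjusted p = 0.875). Neither separated the strains. *miR-43*, *miR-44* and *miR-45*, which follow *miR-42* in number, had 4 placed rows, of which edgeR called 0. Their log2 fold changes were -0.076 to 0.35, with a median of 0.20.

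The summed members had 4622 and 4950 CPM in *pry-1(mu38)* and 9153 and 6834 CPM in N2. Among the 63 other placed rows with a mean of at least 100 CPM, the pattern over the 4 libraries most like theirs was that of *miR-73*, at a Euclidean distance of 0.349 between log2 CPM centred on the row mean, followed by *miR-76* at 0.361 and *miR-90* at 0.408. The median distance over all 63 rows was 1.01. The rows of *miR-35* and *miR-40*, from the same cluster, were not among the 63, so their likeness was not measured. *miR-73* had 20342 and 16776 CPM in *pry-1(mu38)* and 31243 and 22072 CPM in N2. *miR-76* had 649 and 666 CPM in *pry-1(mu38)* and 1134 and 1189 CPM in N2. *miR-90* had 112023 and 91387 CPM in *pry-1(mu38)* and 150626 and 137837 CPM in N2. All 3 were lower in both *pry-1(mu38)* libraries, which follows largely from choosing them for likeness to the members. The likeness rests on 4 points that share their libraries.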

How the data were processed

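Small RNA of L1 animals was sequenced from 2 *pry-1(mu38)* and 2 N2 libraries. The authors deposited raw counts per miRNA row and library, with no normalization. The series' design text names miRDeep2 and the miRBase annotation for estimating abundances, and the study's methods name a perfect genome match, but which reads entered the table is not given in the sources used here. BWA and DESeq are named in the submitters' processing notes. Versions, adapter trimming, strand and the handling of reads that match several miRNAs are not given in the sources used here, so the division of reads between related family members is uncertain. The labels and the study's methods name different Illumina sequencers. Of the columns, 0 had no sample.

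Rows were placed by listed read totals, which served for this alone. A name was accepted if its own row met the total (at least 100 reads), if a single combination of displacements of up to 3 rows met a total of at least 1000 reads with no other total within 10 reads, if successive names of at least 100 reads shared a displacement, or at a neighbour's displacement (at least 50 reads, or within 0.1% for 1000 reads). Of the 153 rows, 85 were checked in this way and 68, the members among them, lay between checked rows of equal displacement. These details exceed the rule first set and were settled on the matches, without the strain test. Names with an empty cell were not placed. From the placed rows 1 identical row, a row of *miR-45* with the counts of *miR-44*, was dropped, while the library totals kept its counts.

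Counts were tested with edgeR 4.0.16 (R 4.3.3) by glmQLFit and glmQLFTest, with TMM factors, filterByExpr (no placed row was removed), library sizes over all deposited rows and Benjamini-Hochberg adjustment over all 153 rows, at 0.05, two-sided. The script was tested on simulated data. Shares and log2 ratios of rows were compared by exact two-sided permutation over libraries (scipy 1.17.1). DESeq2 1.42.0, other scalings, a replicate block, rows as deposited and leaving out each library were alternatives. Positions are from Ensembl release 115. The named genes are the members, the rest of the family, the *miR-51* family, larval timing miRNAs, *miR-43* to *miR-45* and the most abundant row. Also named are the 3 placed rows outside the family that were most like the summed members. Members and lists were chosen with earlier results of these data known.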

Additional observations from a re-analysis of the deposited data

How the results depend on the processing

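With 2 libraries a strain the exact tests cannot reach 0.05, the lower rows of *miR-36* and *miR-39* and the row of *miR-38* rest on few counts, and the placement of the member rows in N2 replicate 2 rests on their neighbours' totals. The number of rows called by edgeR over the table ran between 0 and 7 on leaving out each library (7 without *pry-1(mu38)* replicate 1 and 6 without *pry-1(mu38)* replicate 2, with the lone library assumed to vary like the other strain), DESeq2 called 1, and 0 member rows were called under any alternative. The rows at an unadjusted p under 0.05 numbered 3 without N2 replicate 1 and 25 without *pry-1(mu38)* replicate 1. With rows as deposited, the log2 fold change of the higher row was 0.21 for *miR-37*, -0.13 for *miR-39* and -2.02 for *miR-36*, that of the lower row of *miR-36* was -2.58 and that of *miR-38* -7.60, the log2 difference of the row ratio was 2.55 for *miR-37* and 4.76 for *miR-39*, and the order of the members held in 3 of 4 libraries, since the N2 replicate 2 counts then stand under other names. With 1 count added to each row, the log2 difference of the *miR-39* row ratio was -0.048. On leaving out each library, the difference in family share was -0.371 to -0.245 percentage points, and the log2 fold change was -1.08 to -0.61 for the higher row of *miR-39*, -0.88 to -0.51 for that of *miR-37*, -0.68 to -0.31 for that of *miR-36*, -0.77 to -0.52 for the lower row of *miR-36*, -1.54 to -0.28 for that of *miR-39*, -0.36 to 0.61 for that of *miR-37* and -0.67 to 0.23 for *miR-38*. The log2 difference of the row ratio then ran from -0.72 to 0.76 for *miR-39*, from -1.39 to -0.22 for *miR-37* and from 0.054 to 0.24 for *miR-36*, an alternative chosen after seeing the data, as was the addition of *miR-35*, *miR-40* and *miR-42*. The other alternatives kept the direction of the log2 fold change of all member rows. Libraries with the same replicate number are not stated to share a culture, and the correlation of their deviations between the strains was 0.23 over 153 rows. With the replicate number as a block, edgeR called 0 rows (21 at an unadjusted p under 0.05, 1 of them a member), and the log2 fold change of the higher row of *miR-39* was -0.82.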
